A study of Mus musculus with 12 samples.

Results

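The expression of 51 antiviral interferon-stimulated genes was examined in mouse bone marrow-derived dendritic cells (BM-DCs). The genes were chosen by symbol from a list of 51, and all 51 were found among 53465 listed genes. Of these genes, 26760 had at least 1 read and 14324 were tested, because their mean reached 10 normalized counts in at least 1 group, and all 51 members were tested.

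Cells respond to type I interferon through the receptor IFNAR and the kinases JAK1 and TYK2. The signal reaches interferon-stimulated response elements (ISRE) in promoters and switches on genes whose products sense viral RNA and DNA, block protein synthesis, degrade nucleic acids or hinder entry and release of viruses. Dendritic cells make interferon beta after Toll-like receptor 4 recognises LPS through the adaptor TRIF, and many of these genes are known for a rise in LPS-matured dendritic cells.

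RNA was sequenced from 12 libraries, n = 3 for each of 4 groups. All cells were grown from bone marrow progenitors of wild type C57BL/6 mice at post-natal week 12, and differentiated over 9 days in medium with GM-CSF. Ctrl cells stayed untreated, LPS cells received LPS at 100 ng/ml for 18 h, Aβ cells received oligomers of human Aβ1-42 at 0.5 μM, and Aβ+LPS cells received both. The oligomers were added on day 8, a day ahead of maturation by LPS, and were present for 4 days. Aβ and LPS thus differ in duration as well as in kind. The 4 days with oligomers ran past day 9. Whether all groups were harvested at the same culture age is not stated in the sources used here. The exact time from LPS addition to RNA is not stated in the sources used here. In Aβ+LPS, oligomers present for 4 days from a day ahead of LPS put it later than 18 h. For LPS cells it may be later than 18 h as well. No library with scrambled peptide was analysed here, and the comparisons set oligomers against no peptide. The sources used here do not say whether the libraries of a group came from separate mice, so p-values measure the spread between these libraries, which may be technical. In such bulk RNA, fewer cells of a type and less RNA per cell cannot be told apart.

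Each library held between 23415609 and 29690965 reads assigned to genes. Values are normalized counts, that is reads per gene divided by a size factor for the library. Differences are log2 fold changes (log2(fc)) of normalized count + 1, given ± standard error (SE), with p-values from limma adjusted over the 14324 genes and a threshold of 0.05. Of 8 genes of conventional dendritic cells, Itgax at 23790 to 34100, H2-Ab1 at 16490 to 25660 and Cd74 at 30210 to 44980 normalized counts were high in all libraries. The other members of that list were lower in Ctrl. Their Ctrl means were 5.09 for Flt3, 82.8 for Ccr7, 106 for Zbtb46, 392 for Batf3 and 552 for Ciita. In Aβ the means were 61.7, 3797, 337, 222 and 755 in the same order. Of the 8 genes, 5 were higher and 2 lower in Aβ vs. Ctrl, beside 35.1% and 33.7% of all tested genes. Adgre1, a gene of macrophages, stood at 21540 to 35660. Siglech, which marks plasmacytoid dendritic cells, had 4 reads in all 12 libraries together.

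The libraries of a group differed in the level of the whole set, and most so in Ctrl. Ctrl replicate 2 had the lowest value of its group for 49 of 51 members and Ctrl replicate 3 the highest for 44. Of all tested genes, Ctrl replicate 2 was lowest for 36.1% and Ctrl replicate 3 highest for 33.4%. The median SD of log2 values within Ctrl was 0.217 for the members and 0.0921 for all tested genes. In LPS both medians were close, with 0.103 for the members and 0.107 for tested genes, as in Aβ (0.0697 and 0.0879) and Aβ+LPS (0.0869 and 0.0886). Replicate 3 was highest for 42 members in LPS and for 35 in Aβ+LPS, and Aβ replicate 2 for 32 in Aβ. The shares of all tested genes were 34.7%, 37.8% and 33.8% in the same order. The members therefore shifted together between libraries, and counts of members below are not counts of independent results. Counts are given with and without Ctrl replicate 2 where it matters.

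**Figure D1:**
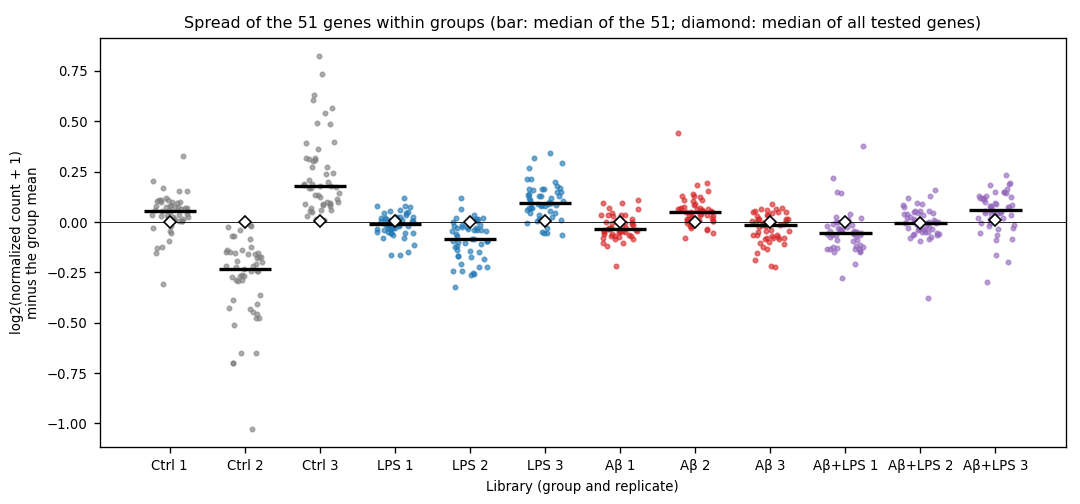
Difference of each member's log2(normalized count + 1) from the mean of its group (vertical axis), for the 12 libraries (horizontal axis). Points are the 51 genes, bars their median and diamonds the median of all tested genes. The median of Ctrl replicate 2 lies at −0.23 and that of Ctrl replicate 3 at 0.18, while medians of all tested genes lie near 0 in every library.

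LPS alone raised 20 of the 51 members and lowered 10, and 21 did not pass the test. The share of all tested genes was 23.8% for an increase and 22.5% for a decrease. The median log2(fc) of the members was 0.11, beside 0.0045 for all tested genes. The 3 largest increases were those of Ifi205, Oasl1 and Slfn1, and the 3 largest decreases those of Ifi27l2a, Oas2 and Rtp4. Without Ctrl replicate 2 the counts were 17 higher and 13 lower and the median was −0.01. Mx1, Xaf1 and Bst2 lost the call without it, while Cmpk2, Parp9 and Ifi204 became lower. Without Ctrl replicate 3, Ifit2, Ddx58, Zbp1, Ifi47 and Sp100 became higher and Ifi203, Rtp4 and Slfn5 lost the call.

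Aβ oligomers alone raised 30 members and lowered 11, beside 35.1% and 33.7% of all tested genes. The median log2(fc) was 0.33, with 0.022 for all tested genes. Ifi205, Oasl1 and Ifi44 had the highest values, Slfn9, Ifi27l2a and Ifit3b the lowest. Without Ctrl replicate 2, 28 were higher and 15 lower with a median of 0.21, and Cmpk2, Ifi203, Slfn5 and Ifit3 became lower while Parp9 and Oas1g lost the call. Without Ctrl replicate 3 the lower count was 7, as Eif2ak2, Ifit2, Oas3 and Parp12 lost the call, and Slfn8 became higher. The mean was highest in Aβ for 30 members, in Ctrl for 13, in LPS for 5 and in Aβ+LPS for 3. The group with the highest mean was not counted for all tested genes. Whether the members differ from them in this respect was therefore not tested.

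Cells with both agents, compared with cells with LPS, had 20 members higher and 11 lower, beside 27.8% and 28.3% of all tested genes. The median log2(fc) was 0.04, and 0.013 for all tested genes. Members thus went both ways in this comparison: Ifi205, Isg15 and Oasl1 had the largest increases, and Slfn9, Ifit2 and Oas3 the largest decreases. LPS on top of Aβ oligomers (Aβ+LPS vs. Aβ) raised none and lowered 4, while 0.0279% of all tested genes were higher and 0.112% lower. At an unadjusted p under 0.05, 0 members were higher in this comparison, beside 2.64% of all tested genes, and neither edgeR nor DESeq2 called one higher.

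Set directly against LPS, Aβ had 31 members higher and 8 lower, beside 27% and 27.2% of tested genes, with a median log2(fc) of 0.28. The doses are of different agents and the durations differ. Without Aβ replicate 3, 5 members were lower. These comparisons share libraries, LPS vs. Ctrl and Aβ vs. Ctrl the Ctrl group, and they are given side by side for each member below.

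**Figure D2:**
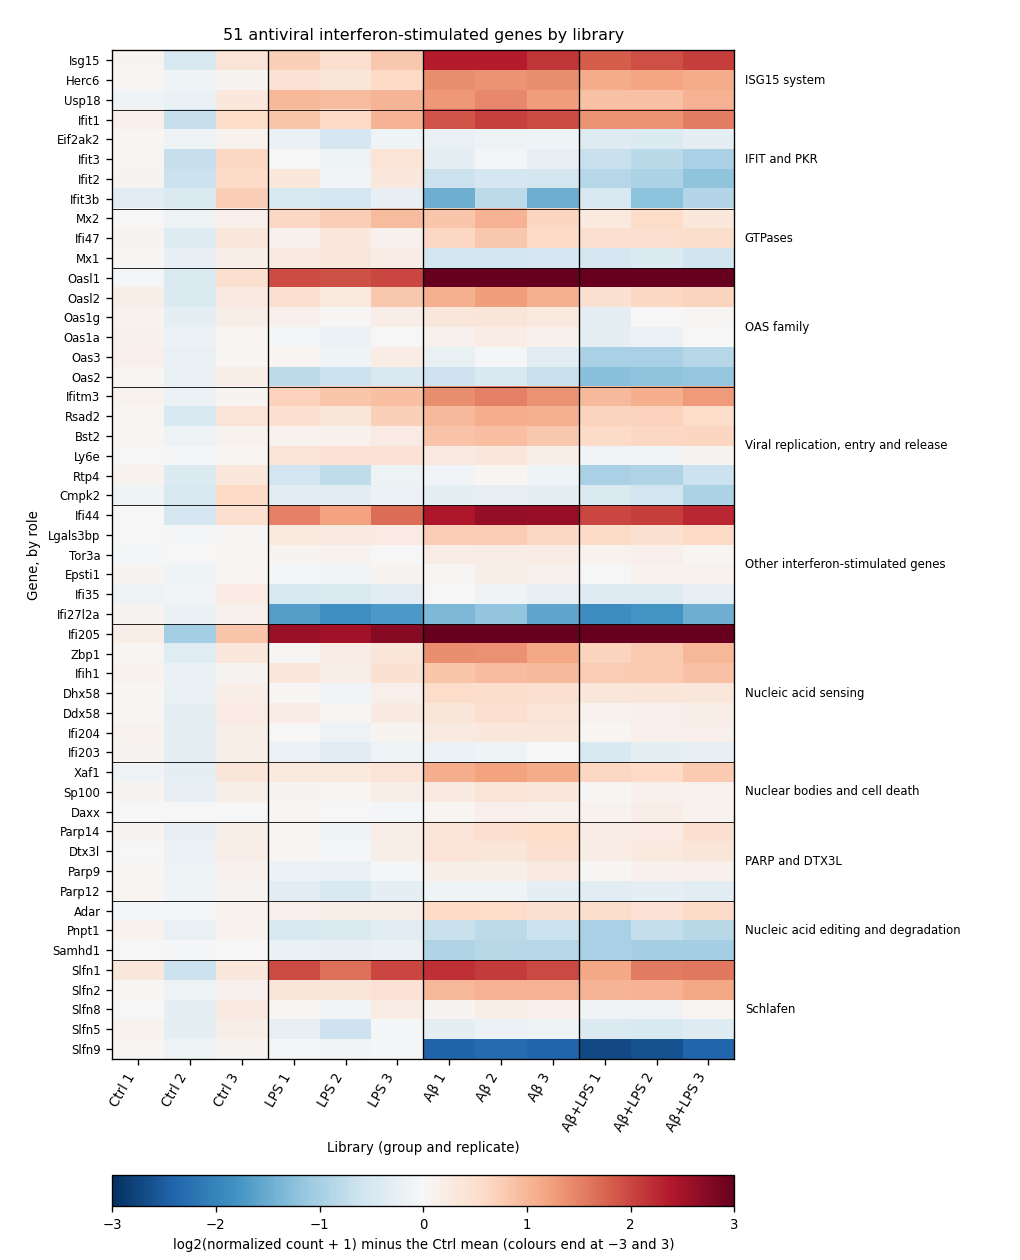
Colour gives log2(normalized count + 1) minus the mean of the 3 Ctrl libraries for the 51 genes (rows, grouped by role) in the 12 libraries (columns). Red is above and blue below the Ctrl mean, and colours end at −3 and 3. Isg15, Oasl1, Ifi44 and Ifi205 are red in the Aβ and Aβ+LPS libraries, while Slfn9 is blue in the same 6 libraries and near 0 in LPS.

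**Figure D3:**
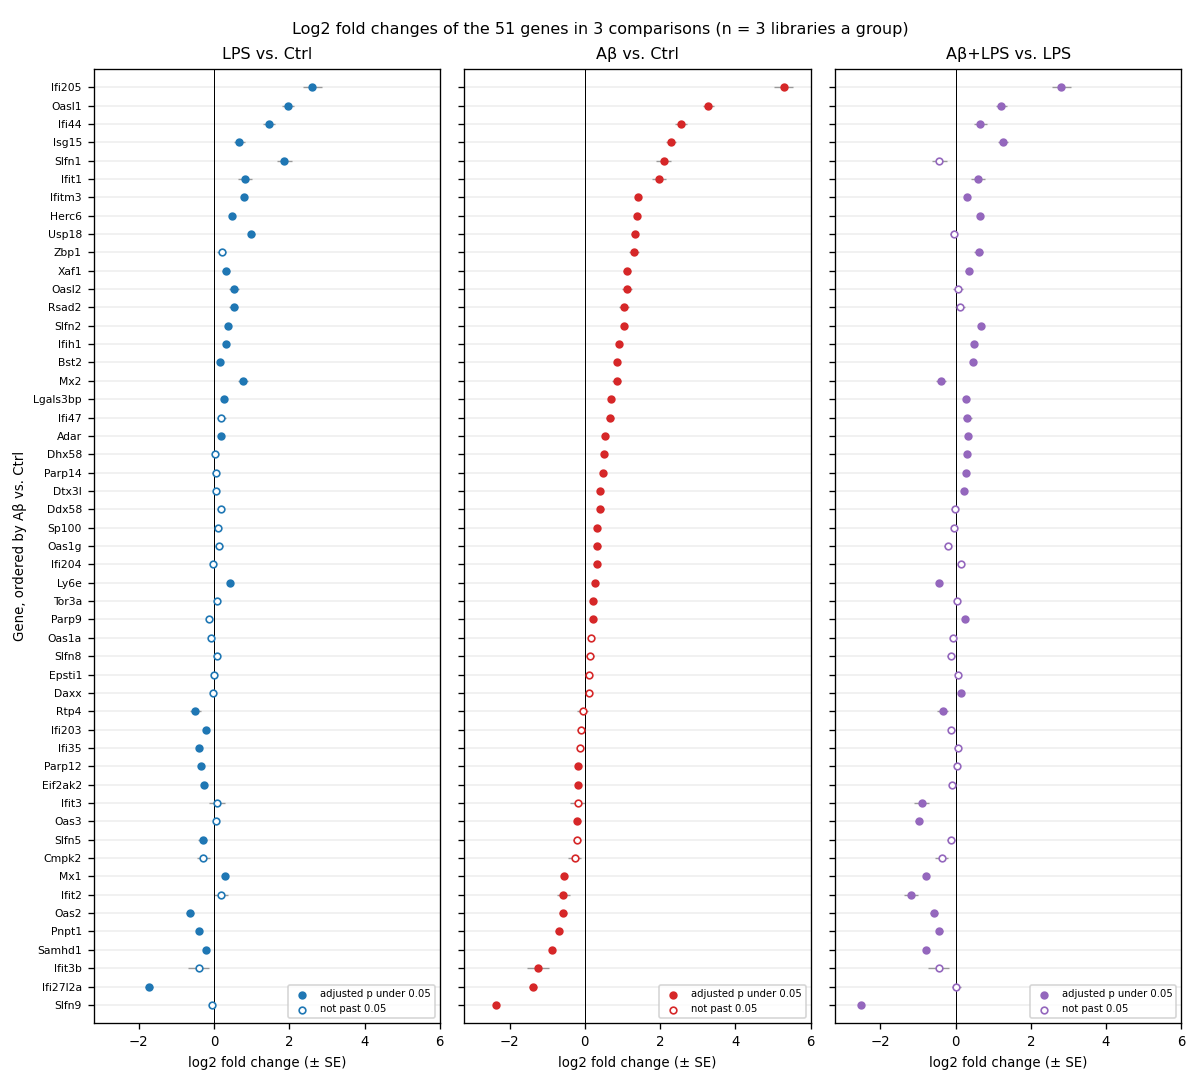
Log2 fold change (horizontal axis) with its SE for each member (vertical axis, ordered by Aβ vs. Ctrl) in LPS vs. Ctrl, Aβ vs. Ctrl and Aβ+LPS vs. LPS. Filled points passed an adjusted p of 0.05 and open points did not. Ifi205 stands at 2.61, 5.28 and 2.81 in the 3 panels, Slfn9 at −0.06, −2.37 and −2.51.

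The ISG15 system adds a ubiquitin-like modifier to proteins, and all 3 of its members rose under LPS and under Aβ, where 23.8% and 35.1% of all tested genes rose. Isg15, the modifier itself, stood at 563, 383 and 704 normalized counts in the Ctrl libraries, 883, 751 and 933 in LPS, 2727, 2743 and 2381 in Aβ and 1878, 2039.7 and 2241 in Aβ+LPS. No group overlapped with another, and the order was Ctrl, LPS, Aβ+LPS, Aβ. Isg15 rose by 0.67 ± 0.14 in LPS vs. Ctrl (adjusted p = 0.00031), by 2.29 ± 0.14 in Aβ vs. Ctrl (adjusted p = 1.6e-12), a 4.89-fold increase, and by 1.26 ± 0.14 in Aβ+LPS vs. LPS (adjusted p = 6.1e-08). Usp18, the protease that removes ISG15 and restrains the interferon receptor, stood at 548, 523 and 744 in Ctrl, 1189, 1156 and 1215 in LPS, 1475, 1624 and 1422 in Aβ and 1106, 1106 and 1227 in Aβ+LPS. Its LPS and Aβ+LPS libraries overlapped, with a log2(fc) of −0.05 ± 0.09 (adjusted p = 0.66), whereas it rose by 1.33 in Aβ vs. Ctrl. Herc6, the ISG15 ligase of the mouse, rose by 0.47 under LPS, by 1.39 under Aβ and by 0.66 in Aβ+LPS vs. LPS.

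The promoter of Isg15 shows what an ISRE looks like and is printed here for that reason. The stretch lies before the RefSeq start of the gene on GRCm38.p6, chr4:156200859-156200908, minus strand, and is written 5′ to 3′ with each match to GAAANNGAAA in capitals, where 3 matches overlap.
Isg15: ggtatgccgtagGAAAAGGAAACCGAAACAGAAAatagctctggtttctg

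The IFIT proteins bind viral RNA, and their 4 genes here lie side by side on chromosome 19 in the order Ifit2, Ifit3, Ifit3b and Ifit1, between 34550694 and 34650009 (GRCm38). Ifit1 stood at 255, 141 and 334 in Ctrl, 408, 348 and 472 in LPS, 855, 959 and 889.7 in Aβ and 587, 586 and 665 in Aβ+LPS, with no overlap between any groups. It rose by 0.82 ± 0.19 under LPS (adjusted p = 0.00094) and by 1.97 ± 0.19 under Aβ (adjusted p = 4.3e-09).

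Ifit2 had its lowest values in Aβ+LPS. Its libraries were 1399.6, 844 and 1962 in Ctrl, 1639, 1258 and 1657 in LPS, 841, 933 and 902 in Aβ and 731, 685 and 575 in Aβ+LPS, so the Ctrl libraries spread widely and overlapped with LPS and Aβ, and Aβ+LPS lay below all other libraries. Ifit2 fell, with a log2(fc) of −1.19 ± 0.18 in Aβ+LPS vs. LPS (adjusted p = 8e-06). Its log2(fc) of −0.57 ± 0.18 in Aβ vs. Ctrl (adjusted p = 0.0079) was not called without Ctrl replicate 3, when the log2(fc) was −0.29 (adjusted p = 0.093). Ifit3 stood at 379, 222 and 560.4 in Ctrl and 363, 324 and 478 in LPS, against 295, 352 and 306 in Aβ and 228, 207 and 183 in Aβ+LPS. It fell, with a log2(fc) of −0.90 ± 0.21 in Aβ+LPS vs. LPS (adjusted p = 0.00088), and its log2(fc) of −0.19 ± 0.21 in Aβ vs. Ctrl did not pass (adjusted p = 0.43), but was −0.54 (adjusted p = 0.0046) without Ctrl replicate 2. Ifit3b, a near copy of Ifit3 with few reads, had 48.6, 44.6 and 101 in Ctrl, 43.4, 41.7 and 50.7 in LPS, 21.3, 34.4 and 21.2 in Aβ and 42.9, 25 and 32.6 in Aβ+LPS. It was lower in Aβ vs. Ctrl, with a log2(fc) of −1.24 ± 0.29 (adjusted p = 0.00071), and of its windows of 100 bases, the read length, 27.4% also stand in transcripts of Ifit3, so reads of both genes may have been shared out in counting.

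The stretches before the starts of Ifit1, Ifit3 and Ifit3b are shown because genes with differing values carry the same ISRE letters. All are on the plus strand of GRCm38.p6, at chr19:34640769-34640828, chr19:34583359-34583428 and chr19:34607755-34607824, with matches to the motif on the other strand in capitals.
Ifit1: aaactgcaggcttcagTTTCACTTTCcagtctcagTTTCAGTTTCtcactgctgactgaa
Ifit3: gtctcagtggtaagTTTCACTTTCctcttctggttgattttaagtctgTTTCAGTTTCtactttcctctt
Ifit3b: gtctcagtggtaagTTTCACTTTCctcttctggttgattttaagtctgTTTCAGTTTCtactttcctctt
Each of the 3 held 2 matches, TTTCACTTTC and TTTCAGTTTC, and all 70 bases printed for Ifit3 and Ifit3b were identical. For Ifit2 neither of the 2 RefSeq starts had a match in the 250 bases before it. Eif2ak2, the kinase PKR that stops protein synthesis on double-stranded RNA, changed little, with 3503, 3041 and 3628 in Ctrl, 2945, 2399 and 3105 in LPS, 2876, 3023 and 3115 in Aβ and 2584, 2531 and 2764 in Aβ+LPS. It was lower, with a log2(fc) of −0.27 ± 0.07 in LPS vs. Ctrl (adjusted p = 0.005), with overlap of the libraries, and its log2(fc) of −0.17 in Aβ vs. Ctrl (adjusted p = 0.048) was lost without any 1 of 8 libraries.

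The OAS enzymes make oligoadenylates that activate RNase L, and the OAS-like genes code for their relatives. Oasl1 and Oasl2 rose under both agents, and Oas2 fell under both. Oasl1, which in the mouse represses translation of Irf7, stood at 53.7, 41.2 and 78.7 in Ctrl, 220.1, 214 and 228 in LPS, 537, 595 and 529 in Aβ and 483, 517 and 542 in Aβ+LPS. Both Aβ groups overlapped with each other and lay above LPS, which lay above Ctrl. The increase was 1.96 ± 0.15 under LPS (adjusted p = 4.1e-10) and 3.28 ± 0.15 under Aβ (adjusted p = 1.4e-14), or 9.74-fold. Oasl2, its neighbour on chromosome 5, rose by 0.53 and 1.12.

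Oas2 stood at 633, 528 and 705 in Ctrl, 356, 394 and 450.4 in LPS, 401, 453 and 391 in Aβ and 256, 267 and 277 in Aβ+LPS, with Ctrl above and Aβ+LPS below all others. It fell, with a log2(fc) of −0.63 ± 0.10 in LPS vs. Ctrl (adjusted p = 2.5e-05) and of −0.57 ± 0.10 in Aβ vs. Ctrl (adjusted p = 3.4e-05). Oas3 stood at 2140.4, 1655 and 2019 in Ctrl, 2002, 1765 and 2234 in LPS, 1642, 1847 and 1558 in Aβ and 978, 985 and 1061 in Aβ+LPS. The Aβ+LPS libraries were lowest, without overlap, and Oas3 fell, with a log2(fc) of −0.98 ± 0.09 in Aβ+LPS vs. LPS (adjusted p = 2.6e-09). Its small decrease in Aβ vs. Ctrl (−0.20, adjusted p = 0.045) was lost without any 1 of 7 libraries. Oas1g was higher in Aβ vs. Ctrl by 0.33 (adjusted p = 0.0083), though not without Ctrl replicate 2, when the log2(fc) was 0.19. Oas1a had a log2(fc) of 0.16 (adjusted p = 0.06), or 0.22 (adjusted p = 0.021) without Ctrl replicate 1. Both are uncertain, since 40.9% of the read-length windows of Oas1a also stand in Oas1g.

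The genes Mx1 and Mx2 of the dynamin-like GTPases, which lie next to each other on chromosome 16, were called in opposite directions under Aβ. Mx1 stood at 1545, 1273 and 1745 in Ctrl, 1823, 1920.2 and 1769.5 in LPS, 1024, 1007 and 1069.6 in Aβ and 1061, 1127 and 996 in Aβ+LPS, so both Aβ groups lay below Ctrl and LPS. Mx1 fell, with a log2(fc) of −0.55 ± 0.08 in Aβ vs. Ctrl (adjusted p = 2.9e-06) and of −0.79 ± 0.08 in Aβ+LPS vs. LPS (adjusted p = 2.1e-08). Under LPS alone it rose by 0.28 (adjusted p = 0.0055), which became 0.16 (adjusted p = 0.052) without Ctrl replicate 2. Mx2 stood at 112, 101 and 124 in Ctrl, 173, 189 and 215 in LPS, 201, 230.5 and 177 in Aβ and 137, 164 and 139.8 in Aβ+LPS, and all 3 treated groups lay above Ctrl without overlap. It rose by 0.77 ± 0.13 under LPS and by 0.84 ± 0.13 under Aβ, but was lower, with a log2(fc) of −0.39 in Aβ+LPS vs. LPS (adjusted p = 0.016). That decrease was not called without LPS replicate 3 or without Aβ+LPS replicate 1 or 3. Ifi47, an immunity-related GTPase, rose by 0.67 under Aβ.

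**Figure D4:**
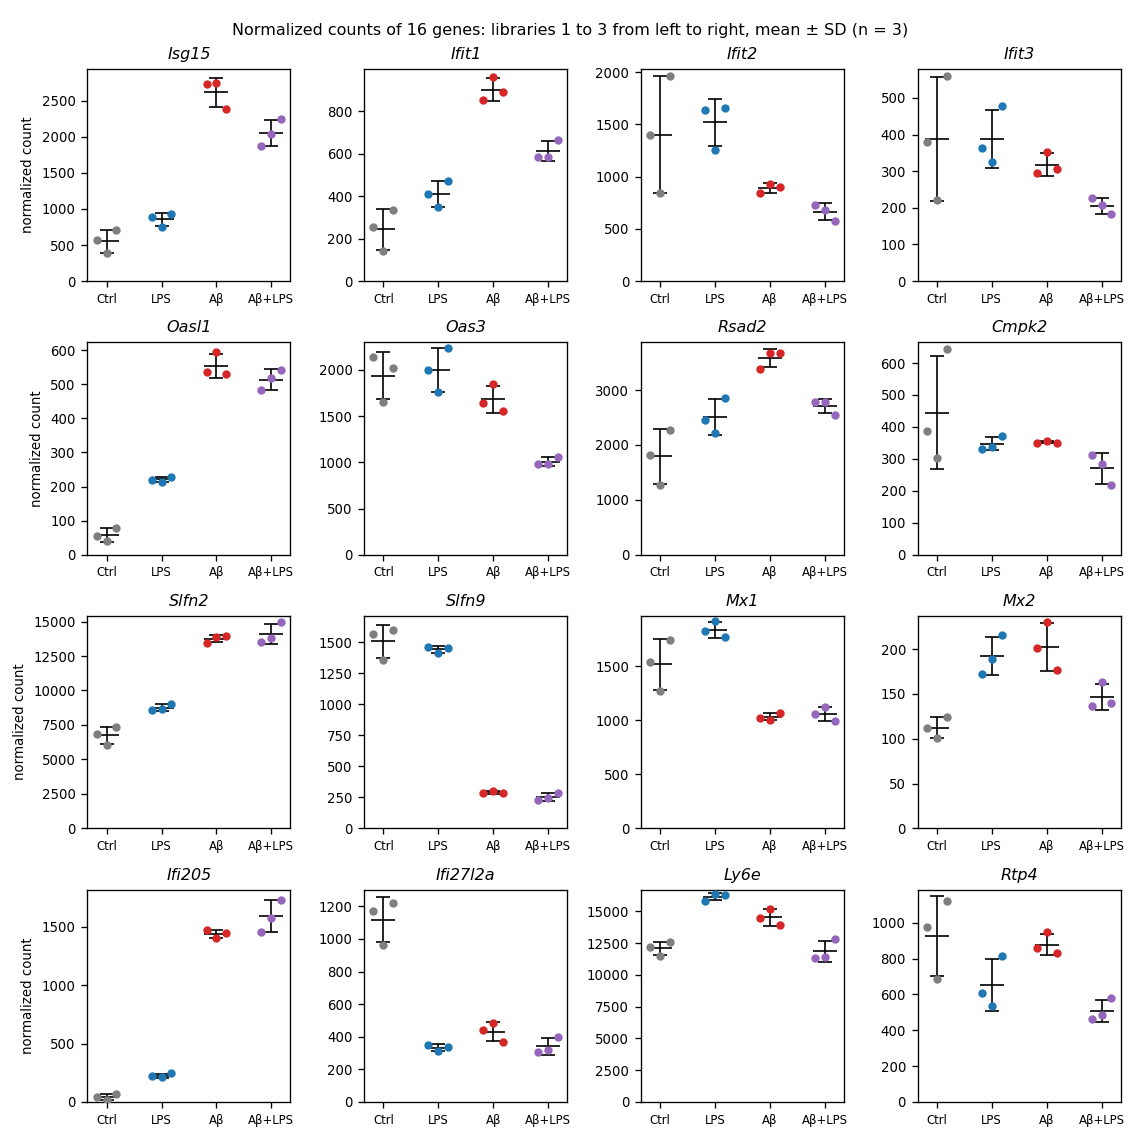
Normalized counts (vertical axes, each starting at 0) of 16 members in the 3 libraries of each group, in the order of their replicate numbers, with mean ± SD (n = 3). Members of a family or locus are drawn near each other. Ifit1 and Ifit2, Rsad2 and Cmpk2, Slfn2 and Slfn9, and Mx1 and Mx2 differ in which groups are high.

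Of 7 sensors of viral nucleic acid, 6 rose and 0 fell under Aβ, where 35.1% of all tested genes rose and 33.7% fell. Under LPS 2 rose and 1, Ifi203, fell, where the shares were 23.8% and 22.5%, and the difference between the agents in these counts was not tested. Ifi205, of the PYHIN family that binds DNA, had the largest increase of all members. It stood at 41.5, 17.2 and 64.4 in Ctrl, 220.1, 212 and 245 in LPS, 1472, 1401 and 1444 in Aβ and 1459, 1579 and 1734 in Aβ+LPS, and only the Aβ and Aβ+LPS libraries overlapped. The increase was 2.61 ± 0.25 under LPS (adjusted p = 2.1e-08) and 5.28 ± 0.25 under Aβ (adjusted p = 3.7e-14), or 38.9-fold, and 15% of its read-length windows stand in other genes of the family too. Its neighbours on chromosome 1 moved less, with 0.31 for Ifi204, which rose, and −0.11 for Ifi203 (adjusted p = 0.27) in Aβ vs. Ctrl. Without Ctrl replicate 2 the value of Ifi203 was −0.24 (adjusted p = 0.0057).

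Zbp1, a sensor of Z-form nucleic acid that can trigger necroptosis, stood at 376, 281 and 448 in Ctrl, 372, 420 and 462 in LPS, 957, 934 and 807 in Aβ and 575, 622 and 726 in Aβ+LPS. Ctrl and LPS overlapped and both Aβ groups lay above them. Zbp1 rose by 1.31 ± 0.12 in Aβ vs. Ctrl (adjusted p = 5.4e-09) and by 0.62 ± 0.12 in Aβ+LPS vs. LPS (adjusted p = 0.00026), with 0.20 in LPS vs. Ctrl (adjusted p = 0.2), or 0.35 (adjusted p = 0.022) without Ctrl replicate 3. Of the cytosolic RNA helicases, Ifih1 (MDA5) rose by 0.33 under LPS and 0.91 under Aβ. Dhx58 (LGP2) rose by 0.52 and Ddx58 (RIG-I) by 0.41 under Aβ, while neither passed under LPS. Ddx58 had 0.17 under LPS, and was called higher there without Ctrl replicate 3 (0.29, adjusted p = 0.0053) or LPS replicate 2 (0.24, adjusted p = 0.028).

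Adar, Samhd1 and Pnpt1 act on nucleic acids or their building blocks. Samhd1, which hydrolyses dNTPs and so starves reverse transcription, stood at 10599, 10310.5 and 10589 in Ctrl, 9146, 8784 and 9219 in LPS, 5624, 5912 and 5768 in Aβ and 5314, 5256 and 5186 in Aβ+LPS, with no overlap between any groups. Samhd1 fell, with a log2(fc) of −0.86 ± 0.04 in Aβ vs. Ctrl (adjusted p = 8.3e-15) and of −0.78 ± 0.04 in Aβ+LPS vs. LPS (adjusted p = 1.1e-13). Pnpt1, the polynucleotide phosphorylase of mitochondria, stood at 1080.4, 864 and 1086 in Ctrl, 729, 744 and 800.4 in LPS, 633, 585 and 639 in Aβ and 513, 613 and 568 in Aβ+LPS. It fell, with a log2(fc) of −0.41 ± 0.08 under LPS and of −0.70 ± 0.08 under Aβ (adjusted p = 1.7e-07). Adar edits adenosine in double-stranded RNA and rose by 0.18 under LPS and by 0.54 under Aβ.

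Of 6 genes that act on replication, entry and release of viruses, 4 rose and 1 fell under LPS (23.8% and 22.5% of all tested genes), and 4 rose and 0 fell under Aβ (35.1% and 33.7%). Ifitm3, which blocks fusion in endosomes, stood at 1892, 1559 and 1868 in Ctrl, 2855, 3138 and 3309 in LPS, 4676, 5008 and 4502 in Aβ and 3446, 3775 and 4272 in Aβ+LPS, without overlap between any groups. It rose by 0.81 ± 0.08 under LPS (adjusted p = 1.2e-08), by 1.42 ± 0.08 under Aβ (adjusted p = 2.4e-13) and by 0.30 ± 0.08 in Aβ+LPS vs. LPS. Bst2 (tetherin), which holds budding virus at the surface, rose by 0.86 under Aβ, and by 0.16 under LPS, which was not called without Ctrl replicate 2 (0.08) or LPS replicate 3 (0.12).

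Rsad2 (viperin), which makes a chain-terminating nucleotide, stood at 1821, 1267 and 2280.5 in Ctrl, 2449.7, 2220 and 2862 in LPS, 3391, 3678 and 3671 in Aβ and 2785, 2788 and 2554 in Aβ+LPS. It rose by 0.52 ± 0.13 under LPS (adjusted p = 0.0019), with overlap of the libraries, and by 1.04 ± 0.13 under Aβ (adjusted p = 2.5e-07), without. Cmpk2, a kinase of nucleotides that lies head to head with Rsad2 on chromosome 12, had 386, 303 and 643 in Ctrl, 332, 339 and 371 in LPS, 350.4, 356 and 349.8 in Aβ and 311, 284 and 217 in Aβ+LPS. Its log2(fc) was −0.28 ± 0.17 under LPS (adjusted p = 0.19) and −0.26 ± 0.17 under Aβ (adjusted p = 0.18), and without Ctrl replicate 2 both were called lower, at −0.52 and −0.50. Whether neighbouring members differ from each other was not tested. Reads of Herc6 and Rtp4 may also be uncertain, since 10.3% and 9.28% of their read-length windows stand in transcripts of other genes, as do 10.7% for Ifi204.

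Ly6e, a membrane protein that hinders fusion of coronaviruses, stood at 12149.5, 11515 and 12558 in Ctrl, 15837, 16346 and 16286 in LPS, 14479, 15175 and 13881 in Aβ and 11327, 11441 and 12792 in Aβ+LPS. It was higher in LPS by 0.42 ± 0.05 and in Aβ by 0.27 ± 0.05 than in Ctrl, while the Aβ+LPS libraries overlapped with Ctrl and lay below LPS and Aβ. Rtp4, a receptor transporter protein, stood at 975, 685 and 1123 in Ctrl, 607, 534 and 814 in LPS, 858, 946 and 830 in Aβ and 462, 486 and 579.6 in Aβ+LPS. It was lower in LPS vs. Ctrl, with a log2(fc) of −0.50 ± 0.14 (adjusted p = 0.0065), with overlap, and this was −0.35 (adjusted p = 0.058) without Ctrl replicate 3. The log2(fc) of −0.34 in Aβ+LPS vs. LPS (adjusted p = 0.048) was lost without any 1 of 8 libraries.

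The Schlafen genes, which include regulators of immune cell quiescence and of tRNA, form a cluster on chromosome 11 between 82951349 and 83122670 (GRCm38) and moved in opposite directions. Slfn9 stood at 1569.9, 1355 and 1601 in Ctrl, 1467, 1416 and 1453 in LPS, 283, 301 and 287 in Aβ and 230.3, 244 and 288 in Aβ+LPS. Ctrl and LPS overlapped, and both Aβ groups lay far below. Slfn9 fell, with a log2(fc) of −2.37 ± 0.08 in Aβ vs. Ctrl (adjusted p = 6.9e-17) and of −2.51 ± 0.08 in Aβ+LPS vs. LPS (adjusted p = 8.9e-17), and LPS alone gave −0.06 ± 0.08 (adjusted p = 0.58). Slfn8, next to it, had a log2(fc) of 0.13 ± 0.10 in Aβ vs. Ctrl (adjusted p = 0.25), which was 0.27 (adjusted p = 0.017) without Ctrl replicate 3. The genes share 3.38% and 3.71% of their read-length windows with other genes, each other among them.

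On the far side of the cluster, Slfn1 stood at 61.8, 30.9 and 61.4 in Ctrl, 192, 157 and 199 in LPS, 226, 214 and 197 in Aβ and 111, 147 and 149 in Aβ+LPS. It rose by 1.87 ± 0.20 under LPS (adjusted p = 9.3e-08) and by 2.09 ± 0.20 under Aβ (adjusted p = 5.3e-09), and the Aβ+LPS libraries lay below both. Slfn2, needed for quiescent T cells and monocytes in the mouse, had 6843, 6069 and 7315 in Ctrl, 8593, 8664 and 9032 in LPS, 13453, 13898 and 13921 in Aβ and 13548, 13814 and 14957 in Aβ+LPS, and rose by 0.38 under LPS and by 1.03 under Aβ. Slfn5 was lower under LPS, with a log2(fc) of −0.31 (adjusted p = 0.023), a call lost without Ctrl replicate 1 or 3 or LPS replicate 2.

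Stretches before the starts of Slfn8 and Slfn9 are printed because Slfn9 was called lower under Aβ and Slfn8 was not, while both hold the same ISRE letters on the other strand, in capitals. They lie on the minus strand of GRCm38.p6 at chr11:83020831-83020880 and chr11:82991848-82991897, and 38 of 50 bases were identical without gaps.
Slfn8: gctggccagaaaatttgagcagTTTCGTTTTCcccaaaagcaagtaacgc
Slfn9: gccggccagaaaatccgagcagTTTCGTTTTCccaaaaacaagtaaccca

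Parp9 and its partner Dtx3l, a ubiquitin ligase, share a locus with Parp14 on chromosome 16. Under Aβ they rose by 0.21, 0.41 and 0.48, Parp9 only with Ctrl replicate 2 included, and none of the 3 passed under LPS. Parp12, a mono-ADP-ribosyltransferase on another chromosome, stood at 1337, 1169 and 1369 in Ctrl, 1021, 940.2 and 1056 in LPS, 1184, 1188 and 1072 in Aβ and 1019, 1069 and 1012 in Aβ+LPS. It fell, with a log2(fc) of −0.36 ± 0.06 under LPS (adjusted p = 0.0001) and less under Aβ (−0.17, adjusted p = 0.026), where the call was lost without Aβ replicate 3 or Ctrl replicate 1 or 3. The genes of nuclear bodies and cell death were Xaf1, which antagonises XIAP and rose by 1.13 under Aβ, Sp100, which rose by 0.33, and Daxx, with 0.11 (adjusted p = 0.085).

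Ifi27l2a, a small hydrophobic protein, fell in both single treatments. It stood at 1172, 961 and 1219 in Ctrl, 352, 312 and 337 in LPS, 438, 486 and 368 in Aβ and 307, 318 and 399 in Aβ+LPS, with Ctrl above all others. The log2(fc) was −1.73 ± 0.11 under LPS (adjusted p = 2.3e-11) and −1.37 ± 0.11 under Aβ (adjusted p = 2.8e-10). Ifi44 stood at 91.2, 62.9 and 127 in Ctrl, 257, 208 and 289 in LPS, 491, 562 and 552 in Aβ and 366, 384 and 439 in Aβ+LPS, with no overlap between any groups, and rose by 1.46 ± 0.17 under LPS and by 2.56 ± 0.17 under Aβ. Lgals3bp, which binds galectin-3, rose by 0.27 and 0.70, and Tor3a, of the torsin family, by 0.22 under Aβ. Ifi35 was lower under LPS, with a log2(fc) of −0.40, and Epsti1 passed in no comparison.

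Per kilobase of exon the level of the members spanned a wide range within each group. Lgals3bp was highest in every group, with a mean of 6112 normalized counts per kb in Ctrl and 9955 in Aβ. Ifi205 was lowest in Ctrl, at 9.83 per kb, and reached 344 in Aβ and 381 in Aβ+LPS. Slfn2 stood at 4052 per kb in Ctrl and 8268 in Aβ, and Slfn9 went from 253 to 48.7.

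LPS on top of Aβ changed few genes. Those that differed between Aβ+LPS and Aβ were 16 lower and 4 higher of 14324, and 4 of the 16 were members. On recovered reads edgeR called 20 genes lower and 10 higher, and DESeq2 30 and 17. The 4 members were Oas3 (−0.74 ± 0.09, adjusted p = 0.00046), Oas2 (−0.63 ± 0.10, adjusted p = 0.0071), Rtp4 (−0.79 ± 0.14, adjusted p = 0.021) and Ly6e (−0.29 ± 0.05, adjusted p = 0.011). The log2(fc) was below 0 for 46 of 51 members and above 0 for 5, beside 48.4% and 51.6% of all tested genes, with medians of −0.23 and 0.0034. At an unadjusted p under 0.05, 36 members were lower, beside 3.72% of tested genes. For 37 members every Aβ+LPS library lay below every Aβ library, as it did for 6.65% of tested genes, and for 0 members did all lie above, beside 6.99%.

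Most of these decreases did not pass the adjusted threshold, and the count of 4 moved with the fit. It was 16 without Ctrl replicate 2, a library outside the comparison that enters through the shared spread, 2 without Aβ replicate 1, and 1 without Aβ replicate 2, Aβ+LPS replicate 1 or Aβ+LPS replicate 2. Only Oas3 was called in every one of these fits. Isg15, with −0.35 ± 0.14 (adjusted p = 0.6), Ifit1, with −0.56 ± 0.19 (adjusted p = 0.49), and Usp18, with −0.39 ± 0.09 (adjusted p = 0.14), are examples in which no libraries overlapped. Rsad2 (−0.40, adjusted p = 0.44), Zbp1 (−0.49, adjusted p = 0.23) and Ifitm3 (−0.31, adjusted p = 0.2) also had Aβ+LPS below Aβ without overlap, and Ifi27l2a (−0.34) and Oasl1 (−0.11) had overlap. The 5 members with values above 0 were Ifit3b, Ifi205, Mx1, Slfn2 and Daxx.

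**Figure D5:**
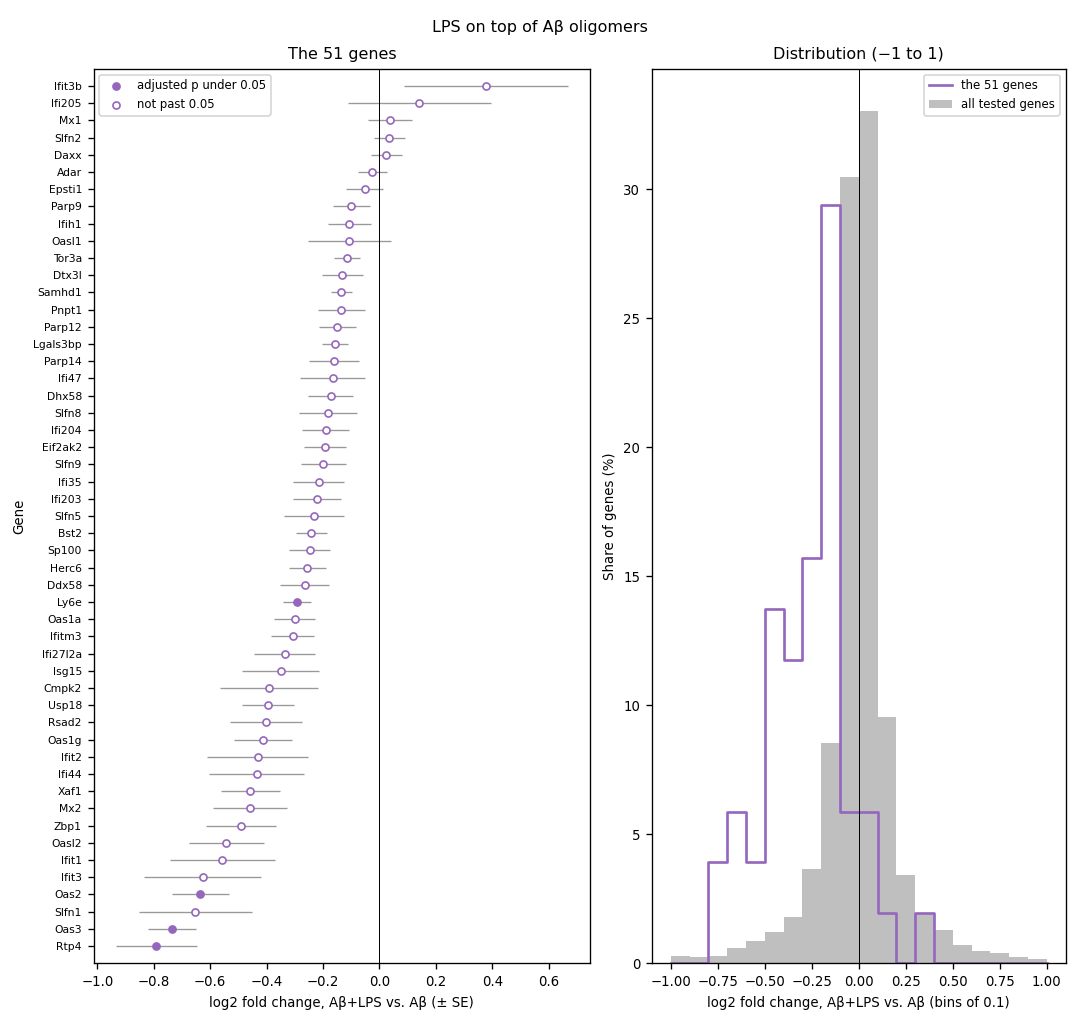
Left, log2 fold change of Aβ+LPS vs. Aβ (horizontal axis) ± SE for each member (vertical axis), filled where the adjusted p was under 0.05. Right, share of genes (vertical axis, %) in bins of 0.1 of that log2 fold change between −1 and 1, for all 14324 tested genes (grey bars) and the 51 members (line). The members lie mostly below 0, with a median of −0.23, and Rtp4, Oas3, Oas2 and Ly6e are filled.

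The interaction is the log2(fc) of Aβ+LPS vs. LPS minus that of Aβ vs. Ctrl. It was lower than 0 for 25 members and higher for 1 past the threshold, beside 16.6% and 15.2% of all tested genes, with a median of −0.35 (−0.0087 for all tested genes). A negative value means that Aβ raised a gene less, or lowered it more, on top of LPS than on untreated cells, and as well that LPS did so on top of Aβ. Slfn1 (−2.52 ± 0.28, adjusted p = 4e-07), Ifi205 (−2.47 ± 0.36, adjusted p = 1.3e-05) and Oasl1 (−2.07 ± 0.21, adjusted p = 1e-07) were lowest. All 3 members of the ISG15 system were negative, Isg15 with −1.02, Usp18 with −1.38 and Herc6 with −0.72, as were Ifit1 with −1.38, Ifitm3 with −1.12, Rsad2 with −0.92 and Zbp1 with −0.69. Ifi27l2a alone passed in the positive direction, at 1.40 ± 0.15 (adjusted p = 3.6e-07), with each agent lowering it and a level under both together close to that under either. Eif2ak2 had 0.08 (adjusted p = 0.62). Without Ctrl replicate 2 the counts were 23 and 3 and the median −0.18, and without Aβ+LPS replicate 1 the higher count was 2. Without Ctrl replicate 3, Mx1, Dhx58, Slfn8, Ifit2, Dtx3l, Ifit3 and Ifi47 also became lower. Leaving out 1 library gave 23 to 32 members lower.

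Genes of the pathway were counted from lists of ligands, receptors, transcription factors and brakes, to be read beside the shares of all tested genes. These were 23.8% higher and 22.5% lower under LPS and 35.1% and 33.7% under Aβ. In Aβ+LPS vs. LPS they were 27.8% and 28.3%, and in Aβ+LPS vs. Aβ 0.0279% and 0.112%. Of 18 type I interferon genes none passed the filter: Ifnb1 had 21 reads in all 12 libraries together and summed levels of the ligands stayed between 0 and 0.304 CPM (counts scaled to the reads in genes). Ifng, the type II ligand, stood at 0 in all Ctrl libraries, at 0, 1.99 and 0.97 in LPS, 5.56, 11.1 and 11.1 in Aβ and 10.3, 11.2 and 14.3 in Aβ+LPS. These are few reads, and the interferon present at earlier times or as protein was not measured.

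Of 7 receptor and kinase genes, 4 rose and 2 fell under LPS, 4 and 1 under Aβ, and none passed in Aβ+LPS vs. Aβ. Jak2, a kinase of the interferon gamma receptor, rose by 1.16 and 2.98, while Jak1 and Tyk2 had −0.04 and −0.07 under Aβ. Ifngr1, a chain of the same receptor, fell, with a log2(fc) of −0.65 under LPS and of −1.14 under Aβ. The other receptor chains, Ifnar1, Ifnar2 and Ifngr2, rose by 0.35, 0.81 and 0.42 under Aβ. Of 8 transcription factors, Irf7, which amplifies interferon production, rose under both agents. It stood at 526, 356 and 683 in Ctrl, 1501, 1509 and 1922 in LPS, 2444, 2524 and 2321 in Aβ and 1384, 1351 and 1683 in Aβ+LPS, and rose by 1.70 and 2.27 over Ctrl. In Aβ+LPS vs. Aβ it was lower, with a log2(fc) of −0.73 (adjusted p = 0.046) without overlap. Irf9 rose by 0.25 in Aβ vs. Ctrl.

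The 9 brakes split, with 5 higher and 4 lower under Aβ, 2 and 3 under LPS. Socs1 and Socs3, inhibitors of JAK kinases, rose by 3.02 and 4.15 under Aβ and by 1.57 and 1.52 under LPS. Of 16 genes known to respond to interferon gamma, 15 were tested, and 12 were higher and 1 lower under LPS, 14 and 0 under Aβ, and 11 and 0 in Aβ+LPS vs. LPS. In Aβ+LPS vs. Aβ none passed in either direction, with a median of −0.07. Of 14 adaptors and kinases that lead to interferon production 12 were found, with 6 higher and 0 lower under LPS and 8 and 3 under Aβ, and of 6 Toll-like receptors and co-receptors 2 rose and 1 fell under LPS and 2 rose and 2 fell under Aβ.

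Markers of other cell types moved with some groups, and their part in the results was not tested. The 6 cell cycle genes summed to 462 to 486 CPM in Ctrl, 436 to 446 in LPS, 74.8 to 78.1 in Aβ and 68.1 to 69.5 in Aβ+LPS. The 8 macrophage genes summed to 3619 to 3669 in Ctrl and 3020 to 3136 in Aβ, with 1 higher and 7 lower in Aβ vs. Ctrl. From Ctrl to Aβ the mean of Mrc1 went from 19520 to 762 normalized counts and that of C1qa from 852 to 46.9. Adgre1, the gene that was higher, went from 21720 to 35060. The 10 plasmacytoid genes summed to 309 to 332 in Ctrl and 126 to 136 in Aβ. Lair1 went from a mean of 7306 to 1066 normalized counts, while 5 of the 7 tested were higher in Aβ vs. Ctrl and Siglech and Klk1 were at or near 0 throughout. B cell genes ranged from 14.6 to 99.6, highest in an Aβ+LPS library through Ighm, and T and NK cell genes from 0.502 to 1.83, with Ncr1 at 0. Neutrophil genes summed to 26.0 to 35.9 in Ctrl and 51.5 to 65.5 in Aβ, with Ly6g, Mpo and Elane near 0. The 8 genes of conventional dendritic cells summed to 3205 to 3872 in all libraries. Of these 8, 5 were higher and 2 lower in Aβ vs. Ctrl.

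RefSeq promoters on GRCm38.p6 were matched by symbol for 38 of the 51 members. In the 250 bases before a start, GAAANNGAAA on either strand stood in 14 of the 38 (36.8%), and in 3.46% of 27025 genes in the table. The 14 were Isg15, Ifit1, Ifit3, Ifit3b, Oas1a, Oas1g, Oas3, Rsad2, Bst2, Ifi203, Ifi205, Slfn5, Slfn8 and Slfn9. Of members higher in Aβ vs. Ctrl, 6 of 21 had a match, of those lower 3 of 8, and of those not called 5 of 9. Matches to these letters are a description of the window and no sign of binding.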

How the data were processed

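RNA was sequenced in 12 libraries (TruSeq Stranded mRNA, single reads of 100 bases). Per the labels and the study's methods, the authors used FastQC 0.11.5, HISAT2 2.1.0 on GRCm38, featureCounts 1.6.0 and DESeq2 in R 3.4.4. The deposited values are normalized counts (a signal, gene counts divided by 1 size factor per library). Counting settings for strand and shared reads are not given in the sources used here. The deposited tables also hold the authors' fold changes, p-values and group means, which were not used.

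Reads were recovered from the steps of the normalized counts, and 100% of values came out whole within 0.05. The test was limma 3.58.1 in R 4.3.3 (trend, log2(normalized count + 1), all 12 libraries, group as the only term, Benjamini-Hochberg over 14324 genes whose mean reached 10 normalized counts in 1 or more groups), checked on simulated data. Alternatives were pseudocounts of 0.5 and 5, no filter, quantile normalization, edgeR 4.0.16 and DESeq2 1.42.0 on recovered reads, only the groups compared, the replicate number as a block, and leaving out each library. Python 3.11.15 and Matplotlib 3.10.9 were used for summaries and plots.

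The members, lists and tests were chosen with earlier results of these data known. Values per library are given for Isg15, Ifit1, Rsad2, Usp18, Zbp1, Eif2ak2, Ifi27l2a and Ifitm3, for the 3 highest and 3 lowest called members of each comparison, and for up to 5 members called against the majority direction. Ifit3, Cmpk2, Mx2 and Slfn2 were added after their values were seen. Depth was 23415609 to 29690965 reads in genes, and 99.6% of gene IDs were found in GENCODE vM21.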

Additional observations from a re-analysis of the deposited data

Results flagged for a closer look

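The effect of Aβ on Mx2 differed without and with LPS by −1.23 on the log2 scale, the interaction in limma. Mx2 rose in Aβ vs. Ctrl and was lower in Aβ+LPS vs. LPS. For Ly6e the interaction was −0.71, a value that holds for the effect of either agent when the other is absent or present. Ly6e rose under each agent alone and was lower in Aβ+LPS than in either single treatment. The cause of these differences was not tested.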

How the results depend on the processing

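Counts of members called lower in Aβ+LPS vs. Aβ were least stable, with 4 as reported, 12 with DESeq2 and 24 with only the groups compared, and 1 to 16 when 1 library was left out (16 without Ctrl replicate 2, 2 without Aβ replicate 1, and 1 without Aβ replicate 2, Aβ+LPS replicate 1 or Aβ+LPS replicate 2). Over all genes, 16 were lower and 4 higher there as reported, 30 and 17 with DESeq2, 20 and 10 with edgeR, 44 and 20 with only the groups compared, and 9 and 3 with no filter. Leaving out 1 library gave 7 to 15 members lower in Aβ vs. Ctrl. In Aβ vs. LPS it gave 25 to 31 higher and 5 to 8 lower. The interaction had 23 to 32 members lower, 1 to 3 higher and medians of −0.44 to −0.18, and LPS vs. Ctrl had medians of −0.0094 to 0.21. Of 86 results on named members 3 changed sign, none of them past the threshold in either fit, when 1 library was left out: Eif2ak2 in Aβ vs. LPS (−0.01 to 0.176, below 0 without LPS replicate 2) and in the interaction (−0.0334 to 0.154, likewise), and Ifi27l2a in Aβ+LPS vs. LPS (−0.0937 to 0.0952, below 0 without LPS replicate 2 or Aβ+LPS replicate 3). Leaving out 1 library cost 21 of these calls and added 8, counted over the 12 libraries, and with only the groups compared 6 were gained and 1 lost. Over all genes, samples of the same number did not deviate together (r of −0.0861 to 0.0367 over 18 pairs). Over the 51 members r ran from −0.632 to 0.49, and was positive in the 3 pairs of Ctrl with LPS (0.204, 0.49 and 0.4). The fit with the replicate number as a block called 24 genes in Aβ+LPS vs. Aβ and 5 members lower, and in LPS vs. Ctrl 20 members higher and 11 lower. The interaction could not be fitted with only 2 groups. Ifit3b, with few reads, had an SE of 0.29 in Aβ vs. Ctrl, the largest among the members there.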
